A study of Mus musculus with 4 samples.

Results

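The transcripts described here are 10 genes that the transcription factor p53 is known to switch on or that act in programmed cell death: Cdkn1a, Ccng1, Mdm2, Phlda3, Pmaip1, Bbc3, Bax, Tnfrsf10b, Fas and Perp. They were taken by symbol from a table of 22632 genes, and all 10 had 1 row each and passed the floor of 1 RPKM (reads corrected for the length of the gene and the size of the library) in every library. RNA came from mouse small intestinal organoids, epithelial cultures grown in Matrigel with Egf, Noggin and Rsp1, harvested 24 hours after crypts were seeded. There were 4 libraries with 1 library per group. Yap-/- organoids were from Yapfl/fl;VillinCre mice and Yap+/- organoids from Yap+/fl;VillinCre mice, so both carry a Cre that the Villin promoter drives in intestinal epithelium, and the Yap+/- control has lost an allele too. YapTg organoids carry a wild-type Yap transgene that doxycycline switches on through a transactivator under Cre control, and were grown with doxycycline (1.5 mg/ml as the labels write it, a unit that may be a lost micro sign, since the same text gives a cell strainer in mm) added at seeding, or without it. None of the 4 libraries combined doxycycline with a line free of the transgene, and what doxycycline itself does cannot be told apart from what Yap does. Which Cre the YapTg line carries, its own Yap alleles, and the age and strain of the mice are not given in the labels.

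With 1 library per group no difference below has a replicate check and no test was made. Intervals are exact 95% counting intervals of the ratio of reads and cover counting error only. The libraries held between 44934170 and 75269003 reads. Yap1 followed the labels, with 3.35 RPKM in Yap-/- cultures, against 16.7 RPKM in Yap+/- cultures, and with 1039 RPKM in YapTg organoids with doxycycline and 25.1 RPKM without it. The 6 epithelial markers were all above 1 RPKM in every library, from Cdx2 at 62.5 to 76.0 RPKM upward. They summed to 4066 RPKM with doxycycline and 1705 RPKM without it, and to 1682 RPKM in Yap-/- cultures, against 1913 RPKM in Yap+/- cultures. Most of the gap with doxycycline came from the keratin genes Krt8, at 1820 and 618 RPKM with and without it, and Krt18, at 1352 and 261 RPKM. Cdh1 was at 280 and 170 RPKM, Epcam at 335 and 372 RPKM and Vil1 at 208 and 222 RPKM. Stromal and endothelial markers summed to between 0.509 and 3.62 RPKM over 7 genes. Of these Vim was the only one at 1 RPKM in any library, and Col3a1 was at 0 in all 4. Immune markers summed to between 4.00 and 10.3 RPKM over 8 genes, most of it from Cd52 and Cd74, and Ptprc stayed at or below 0.256 RPKM. Markers of the epithelial cell types differed in both pairs. With doxycycline the 5 stem cell, 7 enterocyte, 5 Paneth cell and 6 goblet cell markers summed to 48.5, 1236, 3325 and 555 RPKM, against 515, 4248, 5476 and 2151 RPKM without it. Every one of these markers was lower with doxycycline. Most of the stem cell gap came from Olfm4, at 22.0 and 424 RPKM with and without it. Most of the enterocyte gap came from Fabp1, at 106 and 1938 RPKM, while Alpi was at 349 and 370 RPKM and Apoa1 at 449 and 471 RPKM. In Yap-/- organoids the same marker sets summed to 573, 10115, 4710 and 2651 RPKM, against 304, 7173, 2386 and 2096 RPKM in Yap+/-. Most of the stem cell gap in that pair came from Olfm4, at 501 and 244 RPKM. Most of the enterocyte gap came from Fabp1, at 5766 and 3457 RPKM. Alpi, Apoa1 and the goblet cell marker Clca3 were lower in Yap-/- than in Yap+/- organoids, and the other markers of these cell types were higher. The part of the cell types in the results below was not tested. Whole organoids were sequenced, so fewer cells of a type and less RNA per cell cannot be told apart.

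In an undamaged cell p53 protein is kept low because MDM2, itself the product of a p53 target gene, marks it for destruction. When DNA damage or another stress frees p53, it binds its response element near target genes. One set of targets stops the cell cycle, with p21 (Cdkn1a) in the lead. Another set opens mitochondria through BAX and the BH3-only proteins PUMA (Bbc3) and NOXA (Pmaip1), or places death receptors on the cell surface. In the intestine this response is best known from irradiated crypts. Many of these genes are also under factors other than p53, so their transcript levels are not a measure of p53 activity on their own.

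The response element was visible in the start regions of 2 of the 7 genes searched. These 2 are shown because they carry the same kind of element and had different patterns over the libraries. RefSeq start regions of 300 bases (250 before and 50 after the annotated start, GRCm38.p6) were on hand for 7 of the 10 genes, in 10 windows counting alternative starts. Pmaip1, Tnfrsf10b and Perp were not searched for either motif. An element of 20 bases with at most 1 departure from the p53 consensus, which reads the same on both strands, lay in an upstream start window of Cdkn1a (chr17:29090729-29091028, plus strand) and in the window of Ccng1 (chr11:40755237-40755536, minus strand). It began 51 bases before that start of Cdkn1a and 195 bases before the start of Ccng1. Such an element was in 0.0670% of the 32851 windows of all genes. Each sequence runs 5′ to 3′, with the element in capitals.
Cdkn1a: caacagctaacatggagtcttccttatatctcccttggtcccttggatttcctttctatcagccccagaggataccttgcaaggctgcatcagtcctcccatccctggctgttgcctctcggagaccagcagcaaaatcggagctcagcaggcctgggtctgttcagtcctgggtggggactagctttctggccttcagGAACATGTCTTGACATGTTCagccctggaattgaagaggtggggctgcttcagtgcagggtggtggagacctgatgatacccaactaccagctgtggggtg
Ccng1: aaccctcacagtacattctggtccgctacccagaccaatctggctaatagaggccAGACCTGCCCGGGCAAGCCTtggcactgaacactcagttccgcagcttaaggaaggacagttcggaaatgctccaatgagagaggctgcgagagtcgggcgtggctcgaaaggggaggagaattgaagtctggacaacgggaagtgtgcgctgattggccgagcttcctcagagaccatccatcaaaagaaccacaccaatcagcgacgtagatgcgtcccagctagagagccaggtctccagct
The motif GGAATG, bound by the TEAD partners of YAP, was searched on both strands and overlapped no p53 element. It was found in 1 of the 10 windows, that of Phlda3 (chr1:135765835-135766134, plus strand), against 14.7% of all windows. The Phlda3 window is shown for that motif, in capitals.
Phlda3: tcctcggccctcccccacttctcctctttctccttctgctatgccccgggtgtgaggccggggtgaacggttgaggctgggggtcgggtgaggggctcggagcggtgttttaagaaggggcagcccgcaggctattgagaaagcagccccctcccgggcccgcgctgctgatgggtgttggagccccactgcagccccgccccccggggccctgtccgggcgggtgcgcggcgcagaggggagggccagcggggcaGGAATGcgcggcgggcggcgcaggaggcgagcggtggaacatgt
No match elsewhere says only that these letters are not in these windows.

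With induction of Yap most of the 10 genes were higher, Pmaip1 and Tnfrsf10b by most, and with loss of Yap Pmaip1 and Cdkn1a were the lowest by ratio. In YapTg organoids with doxycycline, 8 of the 10 had a log2 ratio above 0 and 2 below, where 5053 of 11108 assessed genes were above 0 and 6055 below. Past 2-fold on the log2(RPKM + 1) scale were 2 higher and 0 lower, where 5.85% and 5.80% of 11108 assessed genes were called higher and lower. Those 2 were Pmaip1 and Tnfrsf10b, and with a pseudocount of 5 the log2 ratio of Tnfrsf10b was 0.95, short of 2-fold. In Yap-/- organoids 0 of the 10 were past 2-fold in either direction, where 0.336% and 0.570% of 10710 assessed genes were called higher and lower, so a count of 0 is near that share. Without regard to sign, the median log2 ratio with loss was 0.15 over the 10 genes, against 0.09 over all genes assessed. Pmaip1 and Cdkn1a stood at the 1.34 and 2.28 percentile of assessed genes there. The median log2 ratio of the 10 was 0.38 with induction, against -0.04 over all genes assessed, and 0.03 with loss of Yap, against 0.05 over all genes assessed. Between the control libraries, Yap+/- over uninduced YapTg, 9 of the 10 had a log2 ratio above 0, where 3746 of 10883 assessed genes did. The uninduced library was the lowest of the 4 for 6 of the 10 genes and the highest for 0.

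**Figure D1:**
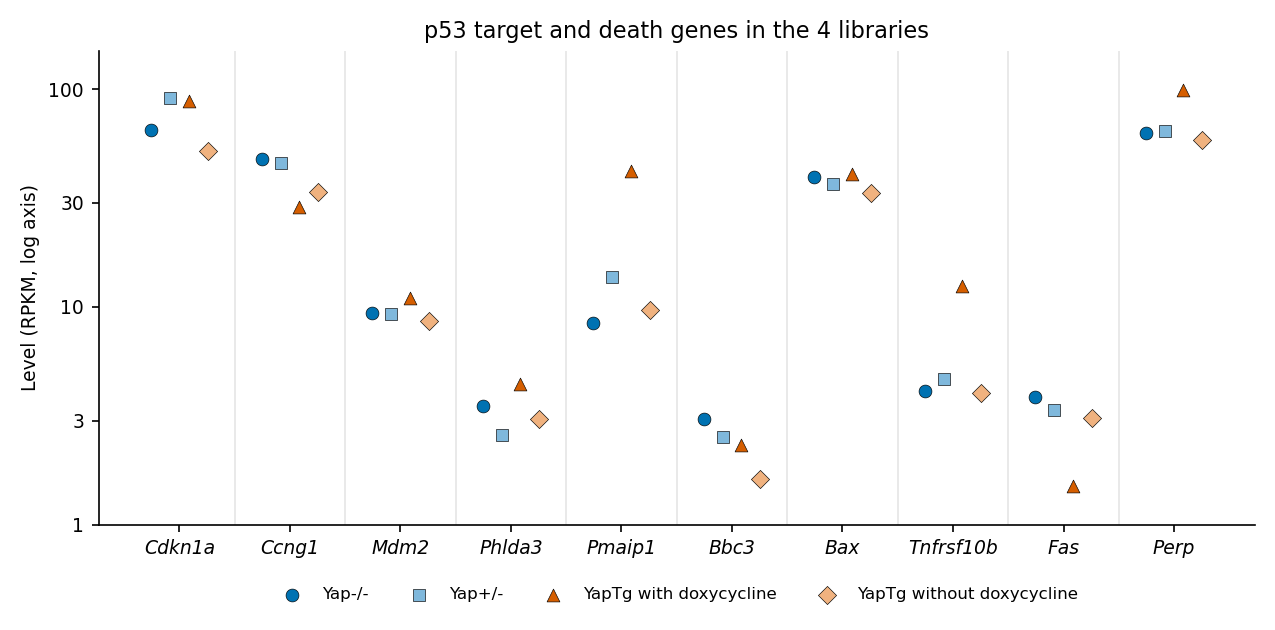
Level of each of the 10 genes in RPKM on a log axis, 1 point per library, with no error bars because each group had 1 library. The triangle of induced YapTg organoids lies above the other points of Pmaip1, at 42.1 RPKM, and below the other points of Fas, at 1.50 RPKM.

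The 10 genes fall into abundant and scarce ones. Cdkn1a, Perp, Ccng1 and Bax lay between the 83.9 and 96.7 percentile of level in all 4 libraries, among the genes at 1 RPKM or more in each, while Bbc3, Phlda3 and Fas lay at or below the 28.8 percentile. Pmaip1 stood at the 50.9 percentile in the Yap-/- library and the 66.4 percentile in the Yap+/- one, and at the 89.9 percentile with doxycycline and the 54.1 percentile without it. Tnfrsf10b stood at the 62.3 percentile with doxycycline and the 26.1 percentile without it, and Fas at the 5.64 and 19.5 percentile.

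The cell cycle inhibitor p21, encoded by Cdkn1a, was the most abundant of the 10 transcripts in 2 of the libraries. Cdkn1a was at 64.8 RPKM in Yap-/- cultures, against 90.6 RPKM in Yap+/- cultures, 1.399-fold lower without Yap (95% interval 1.36 to 1.44). It was at 87.8 RPKM with doxycycline and 51.8 RPKM without it, 1.69-fold higher (1.64 to 1.75). The control libraries also differed, by 1.75-fold between Yap+/- and uninduced YapTg (1.69 to 1.81), so the Yap-/- level lies between those of both controls. In GENCODE M21 another gene on the opposite strand overlaps 7.68% of the exon bases of Cdkn1a, and its reads cannot be told apart here. With induction the Cdkn1a log2 ratio stood at the 91.4 percentile of assessed genes.

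Ccng1, which encodes cyclin G1 and shares with Cdkn1a a near-consensus p53 element, did not follow it with loss or induction of Yap. Ccng1 was at 47.6 RPKM in Yap-/- cultures, against 45.6 RPKM in Yap+/- cultures, and at 28.9 RPKM with doxycycline and 33.6 RPKM without it. The ratio with induction was 0.859 (0.830 to 0.890), while the Cdkn1a ratio was above 1. Ccng1 and Fas were the 2 genes lowest in the induced library of all 4.

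Mdm2, the ubiquitin ligase that holds p53 down, was nearly level in the Yap-/- and Yap+/- pair. It was at 9.36 RPKM in Yap-/- cultures, against 9.30 RPKM in Yap+/- cultures, with a ratio of 1.01 (0.957 to 1.06) and a log2 ratio that changed sign under median-ratio scaling (-0.03) and upper-quartile scaling (-0.03). With doxycycline it was at 11.0 RPKM and without it at 8.56 RPKM, 1.28-fold higher (1.22 to 1.35). Phlda3, a p53-induced repressor of AKT, was the member furthest higher without Yap, at 3.50 RPKM in Yap-/- cultures, against 2.58 RPKM in Yap+/- cultures, 1.36-fold (1.15 to 1.61). It was also higher with doxycycline, at 4.41 RPKM against 3.07 RPKM without it, 1.44-fold (1.22 to 1.69). Phlda3 rested on between 215 and 518 reads per library, so its intervals are wide.

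NOXA, encoded by Pmaip1, is a BH3-only protein that neutralises the survival protein MCL1. Pmaip1 had the widest range of the 10 over the libraries. It was at 8.42 RPKM in Yap-/- cultures, against 13.6 RPKM in Yap+/- cultures, 1.62-fold lower without Yap (1.52 to 1.73), and it was the only one of the 10 past 1.5-fold in that pair (0 higher and 1 lower, where 1.34% and 1.57% of assessed genes were). It was at 42.1 RPKM with doxycycline and 9.62 RPKM without it, 4.38-fold higher (4.11 to 4.66). The Yap-/- level was the lowest of the 4 libraries and the induced level the highest. The controls differed too, with Yap+/- at 1.42 times the uninduced level (1.32 to 1.53). Past 1.5-fold with induction were 4 higher (Pmaip1, Tnfrsf10b, Cdkn1a and Perp) and 1 lower (Fas), where 11.4% and 13% of assessed genes were.

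Bbc3, which encodes PUMA, had few reads, between 146 and 417 per library. It was at 3.07 RPKM in Yap-/- cultures, against 2.54 RPKM in Yap+/- cultures, a ratio of 1.21 (1.04 to 1.41). With doxycycline it was at 2.33 RPKM and without it at 1.62 RPKM, a ratio of 1.44 (1.18 to 1.76). The control libraries differed by a like ratio, with Yap+/- at 1.57 times the uninduced level (1.28 to 1.93). Bax, the pore-forming effector of the mitochondrial route, had the narrowest range of the 10. It was at 39.5 RPKM in Yap-/- cultures, against 36.7 RPKM in Yap+/- cultures, and at 40.6 RPKM with doxycycline and 33.2 RPKM without it, ratios of 1.08 (1.02 to 1.13) and 1.22 (1.16 to 1.29).

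The 2 death receptors differed in direction with induction. Tnfrsf10b, the mouse receptor for the death ligand TRAIL, was at 4.13 RPKM in Yap-/- cultures, against 4.65 RPKM in Yap+/- cultures, 1.13-fold lower without Yap (1.02 to 1.24). With doxycycline it was at 12.4 RPKM and without it at 4.01 RPKM, 3.10-fold higher (2.83 to 3.39). Fas, the receptor for FAS ligand, was at 3.85 RPKM in Yap-/- cultures, against 3.37 RPKM in Yap+/- cultures, a ratio of 1.14 whose interval (0.992 to 1.32) includes 1. Fas was at 1.50 RPKM with doxycycline and 3.10 RPKM without it, 2.06-fold lower by RPKM (1.71 to 2.49), but its log2 ratio of -0.71 on the RPKM + 1 scale did not reach the 2-fold rule. Perp, a membrane protein of desmosomes that p53 and p63 induce, was at 62.8 RPKM in Yap-/- cultures, against 64.5 RPKM in Yap+/- cultures, a ratio of 0.974 whose interval (0.943 to 1.01) includes 1. With doxycycline Perp was at 98.7 RPKM and without it at 58.3 RPKM, 1.69-fold higher (1.64 to 1.75).

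**Figure D2:**
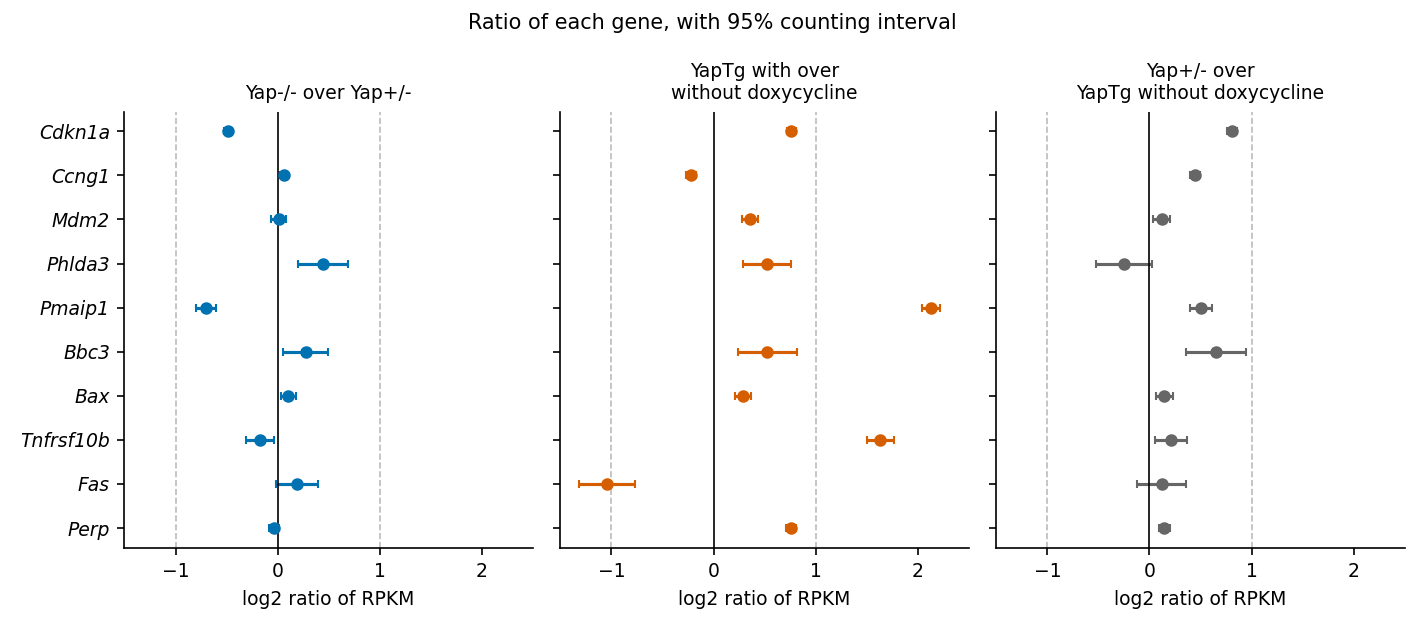
Log2 ratio of RPKM for each gene in 3 comparisons, with bars for the 95% counting interval and dashed lines at 2-fold. With induction Pmaip1 and Tnfrsf10b lie beyond the right dashed line and Fas just beyond the left one, with a bar that crosses it. The control libraries differ most for Cdkn1a.

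By counting error alone most of these genes differed in every pair, and so did most genes. With induction the interval excluded 1 for 8 genes higher and 2 lower, where 36.6% and 45% of assessed genes did so. In the Yap-/- and Yap+/- pair it excluded 1 for 4 higher (Bbc3, Bax, Ccng1 and Phlda3) and 3 lower (Cdkn1a, Pmaip1 and Tnfrsf10b), where 38.7% and 15.8% of assessed genes did so. Between the control libraries, Yap+/- over uninduced YapTg, 8 were higher and 0 lower, where 23.1% and 51.5% of assessed genes were. No member was past 2-fold between the controls, where 1.11% of genes were higher and 0.726% lower. The control comparison shares its libraries with both others and its median log2 ratio was 0.16 over the 10 genes, against -0.11 over all genes. Under median-ratio scaling these medians became 0.30 over the 10 genes and 0.02 over all genes. At 1.5-fold the controls had 1 of the 10 higher, Cdkn1a, and 0 lower, where 3.39% and 4.7% of assessed genes were.

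Loss and induction used separate libraries, so their directions can be set side by side. Cdkn1a, Pmaip1, Tnfrsf10b and Perp, 4 of the 10, were lower without Yap and higher with induced Yap. Fas and Ccng1 were higher without Yap and lower with induction. Mdm2, Bbc3, Bax and Phlda3, the remaining 4, were higher in both, and 0 were lower in both. With loss of Yap the intervals of Mdm2 (0.957 to 1.06), Perp (0.943 to 1.01) and Fas (0.992 to 1.32) include 1. The directions of Mdm2, Perp and Fas in that pair are thus not settled even by counting error. For Ccng1 the log2 ratio there was 0.06, near the median of 0.05 over all genes assessed. It was 0.02 under median-ratio scaling and 0.02 under upper-quartile scaling. Of 11285 genes at 1 RPKM in any library, 22.4% were lower without Yap and higher with induction, 41.9% the reverse, 22.6% higher in both and 13% lower in both. Pmaip1 was the only member past 1.5-fold in opposite directions, a pattern that 112 of the 11285 genes shared (0.992%).

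**Figure D3:**
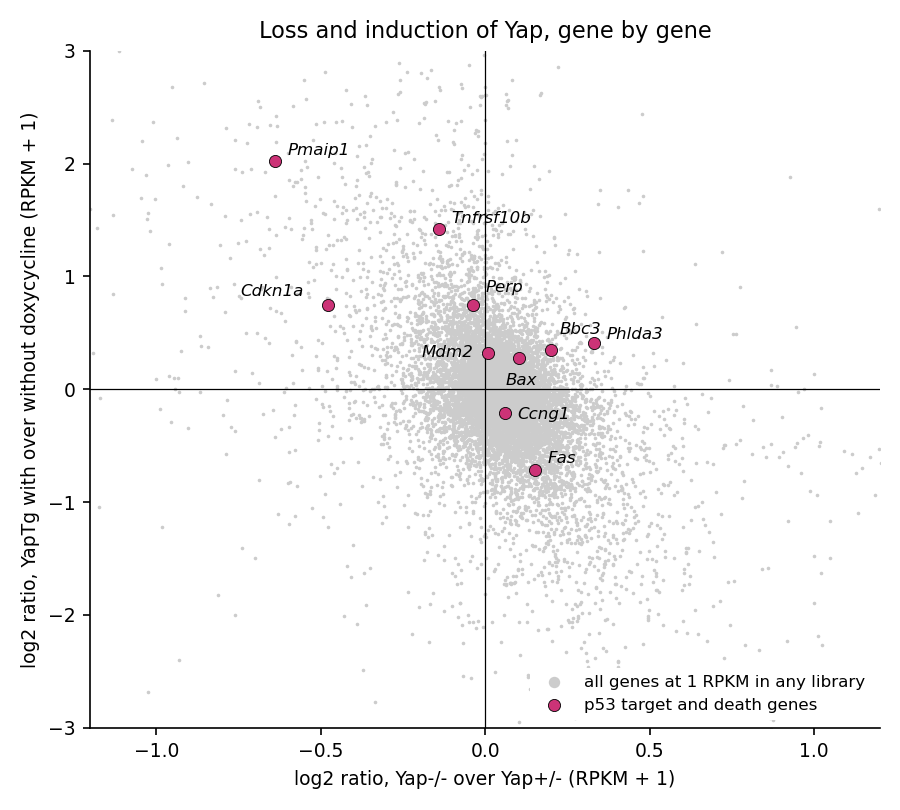
Log2 ratio of RPKM + 1 with loss of Yap on the x axis and with induction on the y axis, the 10 genes as large points and all 11285 genes at 1 RPKM in any library as small ones, 141 of which fall outside the axes. Of the 10 genes Pmaip1 lies furthest to the upper left, at -0.64 and 2.02.

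The genes closest to Pmaip1 in pattern over the 4 libraries, by Euclidean distance of centred log2(RPKM + 1) values among 7982 genes at 5 RPKM or more in some library, were Car2, E130012A19Rik, Slamf9, Trex2 and Dusp3, at distances of 0.14 to 0.19. Car2, which encodes carbonic anhydrase II, was at 2.15 RPKM in Yap-/- cultures, against 3.63 RPKM in Yap+/- cultures, and at 12.97 RPKM with doxycycline and 2.84 RPKM without it. The phosphatase gene Dusp3 was at 1.64 and 2.58 RPKM in Yap-/- and Yap+/- organoids, and at 11.1 and 2.09 RPKM with and without doxycycline.

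The p53 gene itself and its regulators had a median ratio below that of the 10 genes with induction. Trp53 was at 16.1 RPKM in Yap-/- cultures, against 13.4 RPKM in Yap+/- cultures, and at 15.2 RPKM with doxycycline and 18.1 RPKM without it, 1.19-fold lower (1.14 to 1.25). Of 14 listed genes of this group 11 were assessed, with 0 higher and 1 lower past 2-fold under induction and a median log2 ratio of -0.18. The one past 2-fold was Chek2, a DNA damage kinase that activates p53, at 3.57 RPKM with doxycycline and 9.02 RPKM without it. Atm, the kinase that senses double-strand breaks, was at 2.45 RPKM with doxycycline and 3.72 RPKM without it. Hipk2, a p53 kinase, was at 13.7 and 10.7 RPKM, and Zfp385a, a zinc finger partner of p53, at 2.40 and 1.09 RPKM, with and without doxycycline. With loss of Yap 0 of the 11 were past 2-fold and the median was 0.08. Chek2 was at 10.4 and 8.91 RPKM and Zfp385a at 1.72 and 1.78 RPKM in that pair. Mdm4, the other p53 inhibitor, was at 7.13 RPKM in Yap-/- cultures, against 7.07 RPKM in Yap+/- cultures. Trp63 and Trp73, relatives of p53, stayed at or below 0.0161 RPKM in every library.

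Other p53 targets were found at both ends when Yap was induced. In this and the lists that follow, counts past 2-fold with induction stand against 5.85% higher and 5.80% lower over all assessed genes, and those with loss of Yap against 0.336% and 0.570%. Of 17 assessed growth arrest and metabolism targets 2 were past 2-fold higher and 1 lower, with a median log2 ratio of -0.31. Plk2, a polo-like kinase, was at 64.1 RPKM with doxycycline and 2.88 RPKM without it, 22.2-fold higher (20.02 to 24.7). The stress sensor gene Gadd45a was at 21.3 RPKM with doxycycline and 7.38 RPKM without it, 2.88-fold higher (2.63 to 3.15). In the other direction Sesn1, a sestrin that restrains mTORC1, was at 4.23 RPKM with doxycycline and 11.1 RPKM without it, 2.62-fold lower (2.42 to 2.83). Btg2, an antiproliferative gene, was at 8.87 and 16.3 RPKM with and without doxycycline. In the Yap-/- and Yap+/- pair 0 of the 17 were past 2-fold. Gdf15, a stress-induced cytokine of the TGF-beta family, was lowest by ratio there, at 2.10 RPKM in Yap-/- cultures, against 3.81 RPKM in Yap+/- cultures, and Sfn, which encodes 14-3-3 sigma, was at 30.7 and 36.8 RPKM. Btg2 was at 24.1 RPKM in Yap-/- cultures, against 19.1 RPKM in Yap+/- cultures, and Plk2 at 4.43 and 3.78 RPKM.

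DNA repair targets of p53 stood near 0, with a median log2 ratio of 0.01 with loss and -0.02 with induction over 4 assessed genes. Ddb2, a sensor of ultraviolet lesions, was at 3.80 RPKM with doxycycline and 5.86 RPKM without it, while Xpc was at 2.40 and 2.25 RPKM, Polk at 2.41 and 2.37 RPKM and Ercc5 at 3.37 and 3.55 RPKM. In Yap-/- cultures Ddb2 was at 3.93 RPKM, against 4.44 RPKM in Yap+/- cultures, Polk at 2.14 and 2.15 RPKM, Xpc at 2.19 and 2.12 RPKM and Ercc5 at 3.84 and 3.69 RPKM. Among other death targets 0 of 8 assessed were past 2-fold higher and 2 lower with induction. Casp1, the inflammatory caspase, was at 26.5 RPKM with doxycycline and 59.0 RPKM without it, and Trp53i11 at 0.994 and 3.11 RPKM. Apaf1, the scaffold that activates caspase 9, was at 9.13 and 6.11 RPKM, and Siva1 at 8.94 and 5.86 RPKM. With loss of Yap 0 of 9 were past 2-fold. At the low end Siva1 was at 5.44 RPKM in Yap-/- cultures, against 6.27 RPKM in Yap+/- cultures, and Apaf1 at 4.24 and 4.84 RPKM. At the high end Eda2r, a receptor for ectodysplasin A2, was at 1.14 and 0.975 RPKM, and Aen, a p53-induced nuclease, at 5.79 RPKM in Yap-/- cultures, against 4.87 RPKM in Yap+/- cultures.

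**Figure D4:**
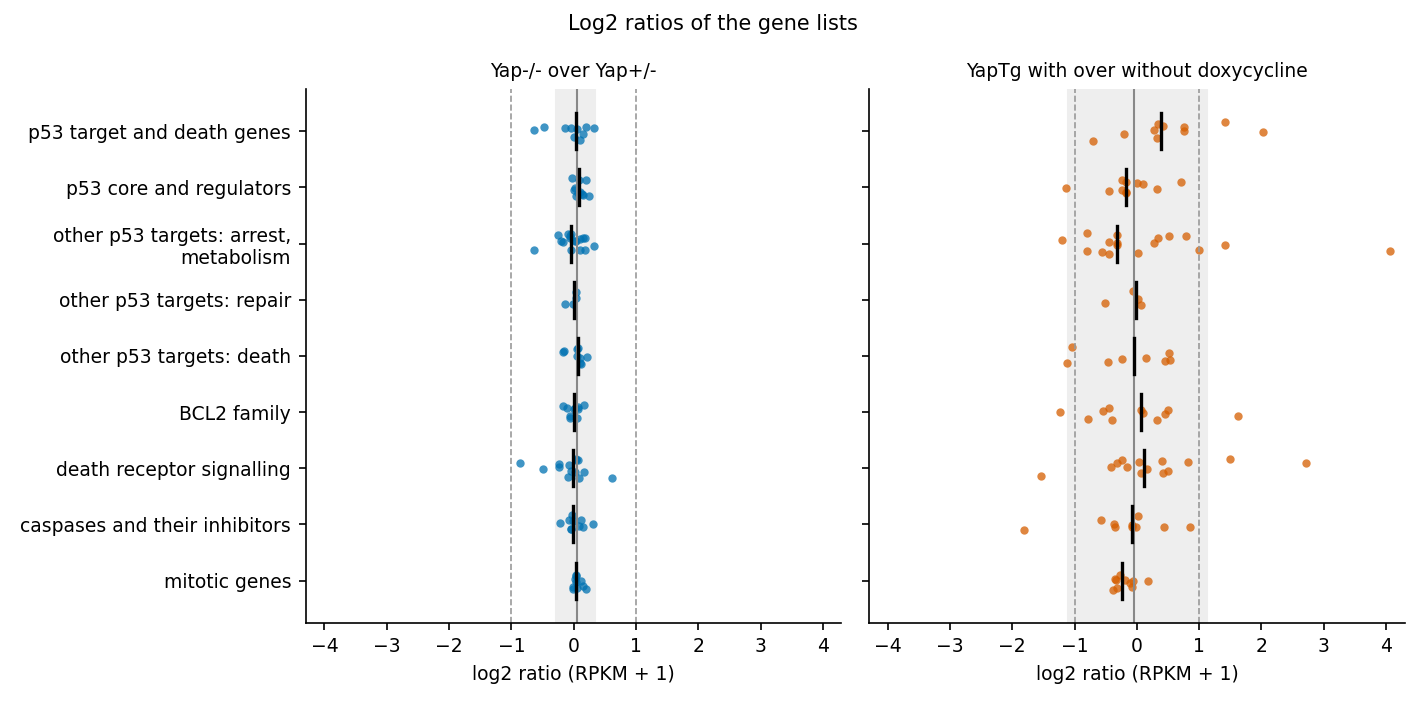
Log2 ratio of RPKM + 1 for each assessed gene of 9 lists, with loss of Yap on the left and induction on the right. Black bars are list medians, the grey band spans the 5 to 95 percentile of all assessed genes with their median as a grey line, and dashed lines mark 2-fold. The points with loss of Yap stay within 2-fold in every list, and the furthest with induction is Plk2 at 4.07.

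The machinery downstream of these genes held both survival and death genes that were higher with induced Yap, and others of both kinds that were lower, among them Casp6. Of 11 assessed BCL2 family genes outside the 10, 1 was past 2-fold higher and 1 lower. By sign 6 of the 11 were above 0 and 5 below, where 5053 of 11108 assessed genes were above 0 and 6055 below. The survival gene Bcl2, near the floor, was at 0.626 RPKM with doxycycline and 1.36 RPKM without it. Bcl2l1, which encodes the survival protein BCL-XL, was at 23.9 RPKM with doxycycline and 7.09 RPKM without it, 3.37-fold higher (3.19 to 3.56). Mcl1, the survival protein bound by NOXA, was at 62.1 RPKM with doxycycline and 43.8 RPKM without it. Bcl2l15, a family member expressed in the gut, was at 13.1 and 32.2 RPKM and Bcl2l14 at 4.15 and 7.84 RPKM, with and without doxycycline. In the Yap-/- and Yap+/- pair 0 of 10 were past 2-fold, from Bcl2l15 at 40.45 RPKM in Yap-/- cultures, against 45.7 RPKM in Yap+/- cultures, to Bad at 18.7 and 16.6 RPKM. Bcl2l14 was at 8.77 and 9.49 RPKM there and Bcl2l11, which encodes the BH3-only protein BIM, at 1.28 and 1.18 RPKM.

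Death receptor signalling had 2 of 14 assessed genes past 2-fold higher and 1 lower with induction. Tnfrsf12a, the receptor for the cytokine TWEAK, was at 182 RPKM with doxycycline and 26.85 RPKM without it, 6.77-fold higher (6.37 to 7.19). Tnfrsf21, death receptor 6, was at 14.6 and 4.57 RPKM and Tnfrsf1a, a TNF receptor, at 24.9 and 33.6 RPKM with and without doxycycline. Tnfsf10, which encodes TRAIL, was at 0.742 RPKM with doxycycline and 4.08 RPKM without it, 5.50-fold lower (4.81 to 6.32), in the pair in which its receptor Tnfrsf10b was 3.10-fold higher. Fasl stayed at or below 0.0480 RPKM in every library and was at 0 reads in uninduced organoids. With loss of Yap 0 of the 14 were past 2-fold, and the ends of the list were Tnfrsf12a at 16.25 RPKM in Yap-/- cultures, against 30.2 RPKM in Yap+/- cultures, and Tnfsf10 at 4.51 and 2.59 RPKM. Tnfrsf23, a decoy receptor for TRAIL in the mouse, was at 2.97 and 4.60 RPKM, and Tnfrsf1a at 42.0 and 37.3 RPKM.

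Among 10 assessed caspases and inhibitors 0 were past 2-fold higher and 1 lower with induction, with a median log2 ratio of -0.08. By sign 3 of the 10 were above 0 and 7 below, where 6055 of 11108 assessed genes were below. Casp6 was at 12.6 RPKM with doxycycline and 46.7 RPKM without it, 3.71-fold lower (3.50 to 3.94), and Casp9 was at 3.65 and 5.92 RPKM, 1.62-fold lower (1.51 to 1.75). Xiap, which encodes an inhibitor of caspases, was at 19.9 RPKM with doxycycline and 10.5 RPKM without it, 1.89-fold higher (1.83 to 1.95), and Casp4 at 4.55 and 3.11 RPKM. Without Yap, Casp6 was at 81.0 RPKM against 64.9 RPKM in Yap+/- organoids, and 0 of the 10 were past 2-fold. Casp2 was at 4.99 and 4.40 RPKM in that pair, and at the low end Casp4 was at 2.39 and 2.93 RPKM and Birc3, an inhibitor of apoptosis, at 5.39 and 5.74 RPKM.

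**Figure D5:**
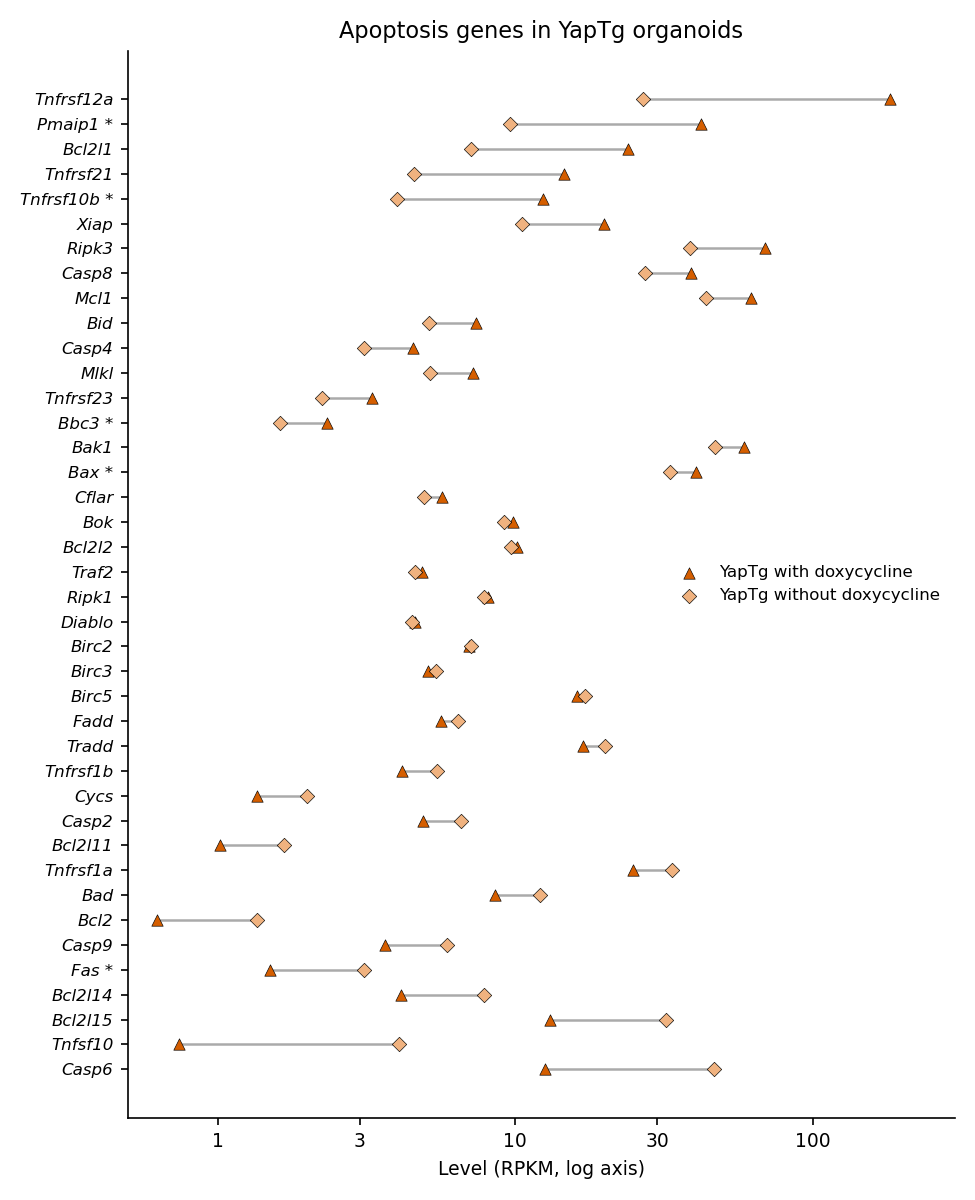
Level in RPKM, on a log axis, of 40 genes of the BCL2 family, death receptor signalling and caspase lists with the 5 death genes of the main list (asterisks), in YapTg organoids with doxycycline (triangles) and without it (diamonds), ordered by log2 ratio. Tnfrsf12a heads the plot at 182 and 26.85 RPKM and Casp6 ends it at 12.6 and 46.7 RPKM.

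Mitotic genes that p21 is known to hold down through the DREAM complex stayed within 2-fold in both comparisons. With induction 9 of the 10 had a log2 ratio below 0, where 6055 of 11108 assessed genes did. The interval lay below 1 for 8 of them, where 4998 of 11108 did so. The median log2 ratio over all genes assessed was -0.04. With induction 0 of 10 were past 2-fold and the median log2 ratio was -0.23, with Bub1 at 8.29 RPKM with doxycycline and 11.1 RPKM without it, Ccnb2 at 27.4 and 35.2 RPKM, Cdc25c at 5.56 and 5.87 RPKM and Cdc20 at 44.75 and 39.4 RPKM. In the Yap-/- and Yap+/- pair the median was 0.04, and Plk1 was at 28.8 RPKM in Yap-/- cultures, against 25.0 RPKM in Yap+/- cultures. Ccnb2 was at 30.6 and 27.3 RPKM in that pair, Ccnb1 at 4.275 and 4.299 RPKM and Mki67 at 23.2 and 23.4 RPKM. Between the control libraries the same genes had a median of -0.51 with all 10 lower in Yap+/-, a wider gap than in either comparison of interest, among them Mki67 at 23.4 RPKM in Yap+/- and 42.6 RPKM in uninduced YapTg organoids.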

How the data were processed

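Total RNA of 4 organoid cultures was made into libraries with an Illumina TruSeq RNA kit, per the labels. The submitters' processing notes name CASAVA 1.8, FastQC, TopHat 1.4.1 and the mm9 build. Neither the labels nor the notes name the counter, annotation, strand setting or filters. The authors deposited what the values show to be RPKM, a unit inferred here since no header names it. All 4 value columns were used and 0 were left over.

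Library totals and whole reads behind the RPKM values were solved with gene lengths from GENCODE M21, taking as whole a value within 0.002 reads of an integer in all 4 libraries. The GENCODE length gave whole reads for 6742 of 17378 genes above 0. For the others a length was chosen because it gave whole reads, the shortest such length, which gives the fewest reads and the widest interval. On simulated data 195 of 200 intervals covered a simulated 4-fold difference. That count concerns the intervals on simulated reads only. It does not show whether the solver recovers the right reads or how the intervals cover real libraries. Intervals are conditional binomial (Clopper-Pearson) and PCR copies make them too narrow.

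Log2 ratios used RPKM plus a pseudocount of 1, which understates differences of low genes. A gene was assessed when its higher library reached 1 RPKM and called at 2-fold. Folds are of RPKM. Named genes are the 10 members and, of each of 8 further lists, the highest and lowest 2 per comparison. Trp63, Trp73, Fasl and Bcl2 were named after their values were seen, as was the control comparison of Mki67. Some genes of the caspase list are not reported here. Members and lists were chosen with earlier results of these data known. In GENCODE M21 exons of Cdkn1a (7.68%) and Bax (12.2%) overlap another gene. Analyses used Python 3.11.15, numpy 2.4.6, pandas 2.3.3 and scipy 1.17.1.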

Additional observations from a re-analysis of the deposited data

How the results depend on the processing

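No paired analysis was possible because each group had 1 library, and no library could be left out for the same reason. Of 150 ratios of single genes recomputed with other pseudocounts and scalings, 148 kept their sign, and the 2 that did not are both Mdm2 with loss of Yap. A pseudocount cannot change the sign of a ratio, so only the scalings could have done so. With loss of Yap the counts of 0 higher and 0 lower became 0 and 1 at 1.5-fold, and 4 and 3 where the counting interval excludes 1. With induction the 2 higher became 1 with a pseudocount of 5, which leaves out Tnfrsf10b, and 1 at 4-fold, while 1.5-fold gave 4 higher and 1 lower and the counting interval 8 higher and 2 lower. Between the controls 0 higher became 1 at 1.5-fold and 8 by the counting interval. A floor of 5 RPKM, which leaves fewer genes, moved the median log2 ratio of the members to 0.75 with induction and to 0.29 between the controls. Between the controls that median was 0.30 with median-ratio scaling and 0.25 with upper-quartile scaling. With loss of Yap the member median of 0.03 changed sign, to -0.014 with the floor of 5 RPKM. It was -0.007 with median-ratio scaling and -0.005 with upper-quartile scaling. Depth limits Bbc3, Fas and Phlda3 most, with 518 reads or fewer in any library.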

Other observations

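Ratios of transcripts whose proteins act on each other were set side by side within each library, for pairs chosen after the values were seen. The RPKM of Pmaip1 over that of Mcl1 was 0.198 in Yap-/- and 0.307 in Yap+/- organoids, and 0.678 with doxycycline and 0.220 without it. The RPKM of Bax over that of Bcl2l1 ran the other way with induction, at 1.70 with doxycycline and 4.69 without it, and was 4.90 in Yap-/- and 4.38 in Yap+/- organoids. The RPKM of Tnfrsf10b over that of its ligand gene Tnfsf10 was 16.8 with doxycycline and 0.983 without it, and 0.915 in Yap-/- and 1.797 in Yap+/- organoids. The RPKM of Mdm2 over that of Trp53 was 0.722 with doxycycline and 0.472 without it, and 0.580 in Yap-/- and 0.692 in Yap+/- organoids. Bbc3 over Bcl2l1 was 0.0975 with doxycycline and 0.228 without it, and 0.381 in Yap-/- and 0.303 in Yap+/- organoids. Bax over Bak1 was 0.691 with doxycycline and 0.707 without it, and 0.811 in Yap-/- and 0.789 in Yap+/- organoids. These are all 6 pairs computed, as ratios of transcripts in whole organoids, with 1 library per group and no test.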
